A study of Mus musculus with 16 samples.

Results

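The nuclear genes for aminoacyl-tRNA synthetases were followed in mIMCD3 kidney cells given doxycycline (DOX) or its vehicle, DMSO. Members were the genes whose symbol is a single capital letter followed by ars, with or without a final 1 or 2, together with *Eprs*, *Farsa*, *Farsb* and *Tarsl2*. They also had to reach a CPM, that is counts scaled to 1e6 per library, of 1 in at least 4 of the 16 libraries. This gave 38 of the 54393 genes in the count table, and all 38 rows that matched by name also reached the limit in every library. Of these, 19 code for cytosolic enzymes, 17 for mitochondrial enzymes (symbols of the form *Xars2*) and 2, *Gars* and *Kars*, for enzymes that serve both compartments. *Tarsl2*, whose product resembles the cytosolic threonyl enzyme, was counted as cytosolic.

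mIMCD3 is a line of mouse inner medullary collecting duct cells from an animal transgenic for SV40, labelled wild type, and it was the only line used. Cells were kept on permeable filters for 10 days and then received 2 µg/mL DOX or DMSO for 3 days or for 6 days, with medium renewed each day. The 4 groups, DMSO and DOX at 3 days and DMSO and DOX at 6 days, held 4 libraries of polyadenylated RNA each. The labels number the replicates without saying that they were separate cultures, so p-values measure the spread between these libraries, which may be technical. Total estimated counts ran from 16933343 to 23960860 per library, and replicates correlated at 0.981 to 0.992. In bulk RNA, fewer cells of a type and less RNA per cell cannot be told apart.

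The labelled cell type was checked against marker genes in TPM (a share of transcripts, which divides by transcript length). The epithelial markers *Epcam*, *Cdh1*, *Krt8*, *Krt18* and *Cldn4* averaged between 78.9 and 889 TPM in the 8 DMSO libraries. Of 6 markers of collecting duct principal cells, *Aqp2*, *Aqp3*, *Avpr2*, *Scnn1b*, *Scnn1g* and *Hsd11b2*, none averaged above 1.12 TPM and only *Hsd11b2* reached the CPM limit. The defining genes of principal cells were thus near absent from a line labelled as collecting duct. Summed over each list, markers of fibroblasts, immune cells and endothelium stayed at or under 1.15 TPM in every library, proximal tubule markers ranged from 2.64 to 20.6 TPM and thick ascending limb markers from 0.583 to 5.22 TPM. A single library stood apart for all genes. Without DOX replicate 1 of 3 days, genes called higher at 3 days numbered 1079 instead of 702, and genes called lower 1216 instead of 956.

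Each synthetase joins an amino acid to the tRNAs that read its codons, and the charged tRNA is what the ribosome uses. Cytosol and mitochondria are served by largely separate enzymes, all encoded in the nucleus. Structural class I and class II enzymes fold differently around the active site, and several cytosolic enzymes sit together in the multisynthetase complex. DOX is a tetracycline, a family known to hinder bacterial-type ribosomes such as those of mitochondria. Amino acid shortage and disturbed mitochondrial translation are known to raise the transcription factor Atf4, which is known to bind many cytosolic synthetase genes.

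Before the response to DOX, levels in DMSO were compared on the TPM scale. The median of the gene means was 76.4 TPM over the 19 cytosolic genes, from 3.81 for *Tarsl2* to 448 for *Sars*, and 13.7 TPM over the 17 mitochondrial genes, from 1.08 for *Mars2* to 83.7 for *Lars2*. *Sars*, for serine, reached 448 ± 44.0 TPM (SD, n = 8), and *Nars*, for asparagine, 255 ± 22.1 TPM. The lowest *Sars* library, at 378 TPM, was above the highest *Nars* library, at 291 TPM. *Gars*, for glycine, and *Kars*, for lysine, followed at 142 ± 13.2 and 132 ± 6.51 TPM, and their ranges over the 8 libraries overlapped, as did those of *Kars* and *Dars*, for aspartate, at 125 ± 16.7 TPM. The mitochondrial leucyl gene *Lars2*, at 83.7 ± 11.5 TPM, was level with the cytosolic methionyl gene *Mars*, at 83.7 ± 11.2 TPM. At the low end stood *Nars2* with 4.73 ± 1.14 TPM, *Tarsl2* with 3.81 ± 0.610 TPM and *Mars2* with 1.08 ± 0.181 TPM. Over all 16 libraries, DOX included, raw counts ranged from 111 for *Nars2* in DMSO replicate 3 of 3 days to 21395 for *Sars* in DOX replicate 2 of 6 days.

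**Figure D1:**
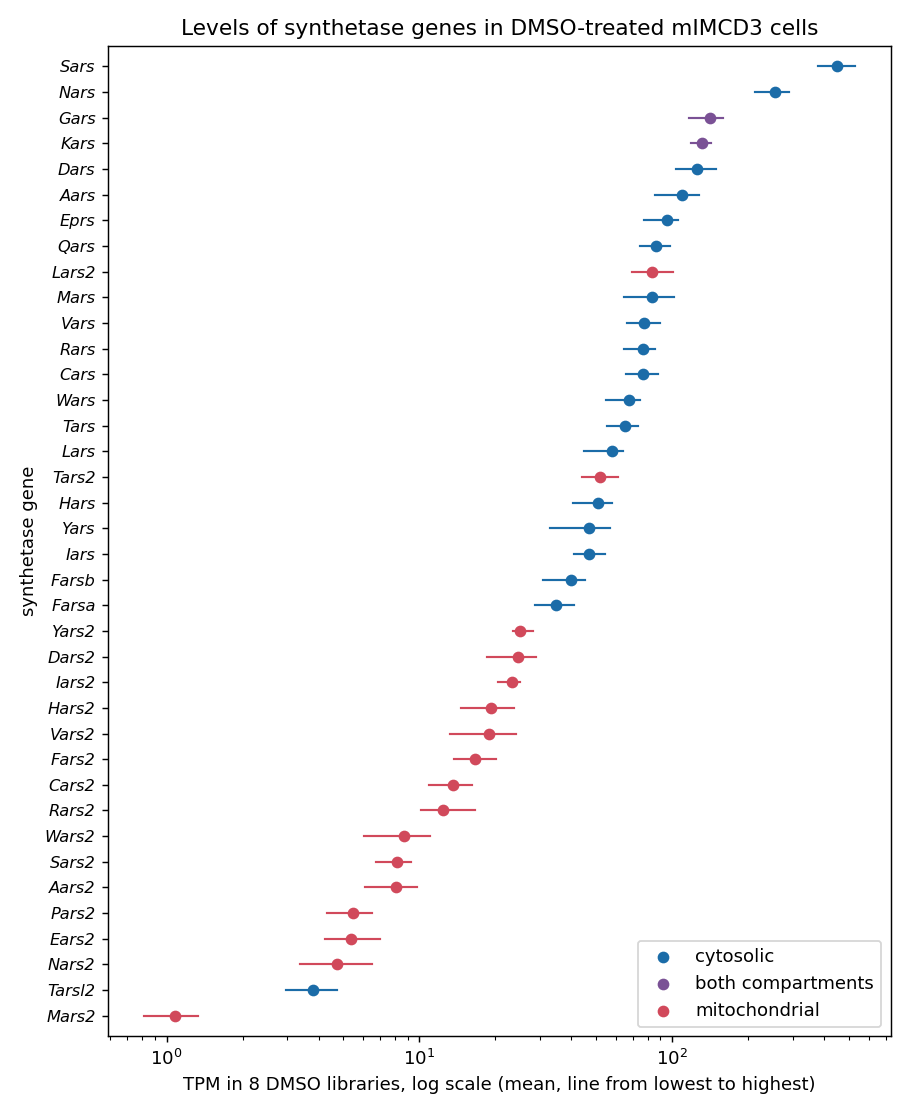
TPM of the 38 synthetase genes in the 8 DMSO libraries, on a log axis, with a point for the mean and a line from the lowest to the highest library; colours give the compartment of the enzyme. Cytosolic genes fill most of the upper part, with *Sars* at 448 TPM, while mitochondrial genes lie lower except *Lars2* at 83.7 and *Tars2* at 52.1 TPM.

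In DOX, many cytosolic synthetase genes were higher than in DMSO at both times, and none of the 38 genes was called lower. A gene is referred to as called where edgeR's glmTreat, which asks for a change beyond 20%, gave an adjusted p under 0.05 over all 13234 tested genes. At 3 days 12 of the 38 genes were called higher, against 5.3% of all tested genes called higher and 7.22% called lower. At 6 days again 12 were called higher, against 10.0% of all genes higher and 11.6% lower. The median log2 fold change over the 38 genes was 0.29 at 3 days and 0.29 at 6 days, where the median over all tested genes was 0.0031 and -0.00064. The estimates were above 0 for 34 genes at 3 days and 35 at 6 days, and for 27 and 32 when limma was run on log2(TPM + 1). Both comparisons use their own DMSO libraries.

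**Figure D2:**
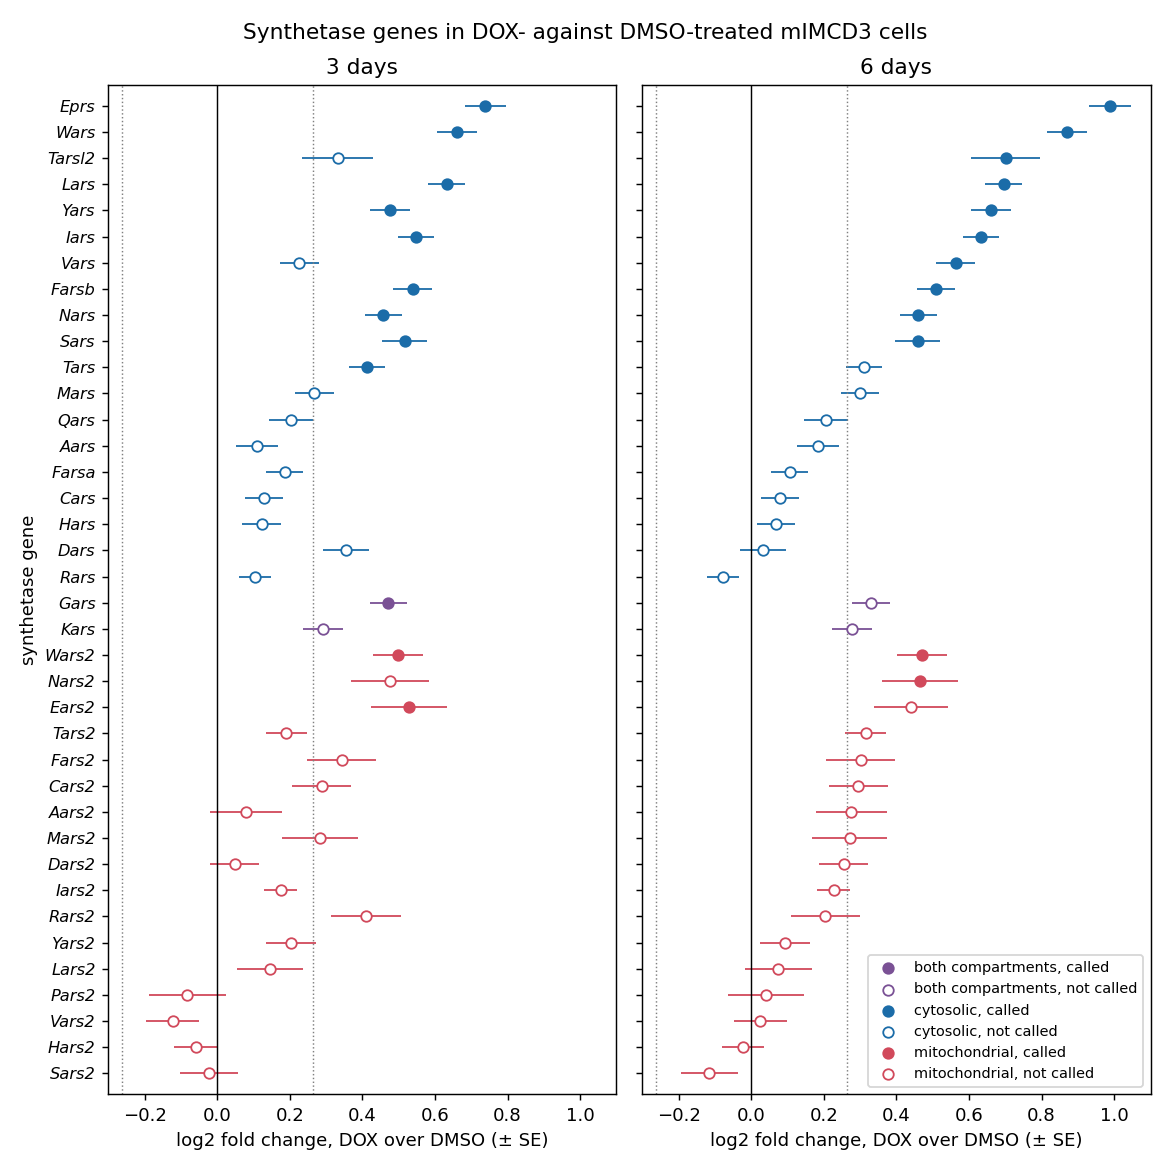
Log2 fold change of DOX over DMSO with its SE for the 38 synthetase genes at 3 days (left) and 6 days (right), from the edgeR fit of 16 libraries; filled points were called, open points were not, and dotted lines mark a change of 20%. Called genes all lie to the right, led by *Eprs* at 0.74 and 0.99, and all but 4 of the mitochondrial genes lie right of 0 at 3 days.

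*Eprs*, *Farsb*, *Iars*, *Lars*, *Nars*, *Sars*, *Wars*, *Wars2* and *Yars* passed at both times. *Ears2*, *Gars* and *Tars* were called only at 3 days, *Nars2*, *Tarsl2* and *Vars* only at 6 days, and 23 genes at neither. By compartment, 9 of 19 cytosolic genes passed at 3 days and 10 at 6 days, with medians of 0.35 and 0.46. Of the 17 mitochondrial genes 2 were called at each time, with medians of 0.19 and 0.25. Of all tested genes 5.3% and 10.0% were called higher, so at 6 days the mitochondrial share was close to that of all genes. All 4 DOX libraries lay above all 4 DMSO libraries in 28 of the 38 genes at 3 days and in 22 at 6 days, where 18.8% and 22.1% of all tested genes did so. Within the cytosolic and dual genes this held for 18 and 16 of 21, and within the mitochondrial genes for 10 and 6 of 17. Summed over the 19 cytosolic genes, the TMM-scaled level went from 3647 ± 57.6 CPM (SD, n = 4) in DMSO to 4874 ± 97.7 CPM in DOX at 3 days, and from 3917 ± 86.2 to 5391 ± 67.4 CPM at 6 days. The 17 mitochondrial genes summed to 699.5 ± 36.4 and 785 ± 10.2 CPM at 3 days, and to 732 ± 39.0 and 827 ± 46.4 CPM at 6 days. A large part of these sums was *Lars2* alone, with 256 ± 23.2 and 283 ± 13.2 CPM at 3 days and 259 ± 26.3 and 273 ± 40.1 CPM at 6 days. The cytosolic sums did not overlap between treatments at either time, and the mitochondrial sums did not at 3 days. In TPM the cytosolic sum was still higher in DOX, 1741 ± 161 against 2048 ± 138 TPM at 3 days and 1955 ± 89.7 against 2533 ± 124 TPM at 6 days. The mitochondrial sum in TPM was lower in DOX at 3 days, 308.5 ± 24.3 against 314.7 ± 38.5 TPM in DMSO, and higher at 6 days, 372.1 ± 28.1 against 347.6 ± 22.5 TPM, with overlapping libraries both times, so its direction at 3 days depended on the scale.

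Epithelial markers changed too, but in the other direction. *Krt8* fell by 0.48 and 0.75 on the log2 scale at 3 and 6 days, *Cdh1* fell at 3 days and *Krt18* and *Cldn4* fell at 6 days, so 2 and then 3 of the 5 markers were called lower. The summed level of the 5 markers was 1914 to 2108 TPM in DMSO and 1369 to 1605 TPM in DOX at 3 days, and 2081 to 2330 TPM against 1392 to 1581 TPM at 6 days. *Hsd11b2* was called lower at 6 days with -1.44 ± 0.39, from a mean of 0.967 CPM in DMSO to 0.345 CPM in DOX. Its lowest 6-day DOX library, at 0.196 CPM, was close to the level of 3 counts. No DOX library of either time was above 0.845 CPM, so the gene met the CPM limit through DMSO libraries only. Entry on that basis favours a lower call, and no conclusion was drawn from it. No marker of proximal tubule, thick ascending limb or endothelium was called at either time. Markers of fibroblasts and immune cells were under the CPM limit, and *Pdgfrb* was listed at 0 in at least 1 DMSO library. The part of these shifts in the synthetase results was not tested.

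The largest change was that of *Eprs* (ENSMUSG00000026615, chromosome 1 from 185363044 to 185428360), which codes for the bifunctional enzyme that charges glutamate and proline tRNAs in the multisynthetase complex. At 3 days it measured 363, 395, 384 and 402 TMM-scaled CPM in the 4 DMSO libraries and 655, 654, 621 and 647 CPM in the 4 DOX libraries. At 6 days the values were 369.6, 387, 416 and 412 CPM in DMSO and 803, 789.7, 794 and 756 CPM in DOX. Every DOX library was far above every DMSO library at both times, and the 6-day DOX libraries were above the 3-day ones. The log2 fold change was 0.74 ± 0.057 (SE) at 3 days and 0.99 ± 0.058 at 6 days, or 1.67-fold and 1.98-fold (edgeR adjusted p = 3.59e-07 and 4.65e-10).

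*Lars* (ENSMUSG00000024493, chromosome 18 from 42202298 to 42262194), the cytosolic leucyl enzyme, is another complex member. It measured 153, 162, 161 and 169 CPM in DMSO and 243, 248, 247 and 262 CPM in DOX at 3 days. At 6 days it measured 164, 160.1, 171 and 179 and 265, 277, 279 and 270.4 CPM. The groups did not overlap at either time, and the log2 fold changes were 0.63 ± 0.051 and 0.70 ± 0.051 (edgeR adjusted p = 2.14e-06 and 8.31e-08). *Iars* (ENSMUSG00000037851, chromosome 13 from 49682100 to 49734267), for isoleucine, measured 148, 150.0, 149.5 and 159 CPM in DMSO and 225, 222, 212 and 227 CPM in DOX at 3 days. Its values at 6 days were 152, 149, 162 and 166 and 247, 243, 248 and 236 CPM. Again the DOX libraries were all higher, by a log2 fold change of 0.55 ± 0.050 and 0.63 ± 0.050 (edgeR adjusted p = 3.59e-05 and 4.90e-07).

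The other complex members were not called at either time. *Mars*, for methionine, had log2 fold changes of 0.27 ± 0.053 and 0.30 ± 0.053, but shares exon bases with *Ddit3* on the opposite strand, and the use of strand in counting is not given in the sources used here. *Kars* had 0.29 ± 0.056 and 0.28 ± 0.056, and *Qars*, for glutamine, 0.20 ± 0.060 and 0.21 ± 0.060. *Rars*, for arginine, had 0.10 ± 0.045 at 3 days and -0.078 ± 0.045 at 6 days, and was the only synthetase gene whose 6-day DOX libraries all lay below the DMSO libraries, although its sign turned at both times with an offset for transcript length and GC content. Of the 8 complex members 3 were called higher at each time, and of the 13 other cytosolic and dual genes 7 were called higher at each time. Among all tested genes, 5.3% were called higher at 3 days and 10.0% at 6 days. The medians were 0.32 and 0.29 in the complex and 0.41 and 0.46 outside it.

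Outside the complex, *Wars* (ENSMUSG00000021266, chromosome 12 from 108860030 to 108894174), the tryptophanyl enzyme, changed most. It measured 128, 140.5, 141 and 144 CPM in DMSO and 216, 219, 204 and 236 CPM in DOX at 3 days. The 6-day values were 143, 139.7, 139.8 and 144 CPM in DMSO and 239.5, 263, 273 and 259 CPM in DOX. No library overlapped between treatments, and the log2 fold change was 0.66 ± 0.056 at 3 days and 0.87 ± 0.056 at 6 days (edgeR adjusted p = 2.92e-06 and 3.19e-09). *Yars* (ENSMUSG00000028811, chromosome 4 from 129189760 to 129219607), for tyrosine, measured 75.9, 82.5, 77.5 and 87.0 CPM in DMSO and 107, 114, 113 and 116 CPM in DOX at 3 days. At 6 days it had 95.5, 89.6, 93.7 and 86.6 and 136, 143, 151 and 147 CPM. The treatments were separate at both times, with log2 fold changes of 0.48 ± 0.055 and 0.66 ± 0.055 (edgeR adjusted p = 0.00151 and 7.51e-07). *Yars* shares exon bases with *C77080* on the opposite strand.

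*Tarsl2* (ENSMUSG00000030515, chromosome 7 from 65644898 to 65692091), the threonyl-like enzyme, was scarce. It measured 8.74, 9.25, 10.9 and 9.58 CPM in DMSO and 12.8, 12.2, 12.1 and 11.3 CPM in DOX at 3 days. At 6 days the values were 8.32, 10.7, 9.03 and 11.8 and 16.9, 15.5, 16.8 and 15.8 CPM. The treatments were narrowly separate at 3 days and widely at 6 days. The log2 fold change was 0.33 ± 0.098 at 3 days, which was not called (edgeR adjusted p = 0.36), and 0.70 ± 0.096 at 6 days (adjusted p = 1.67e-04). It shares exon bases with *Tm2d3* on the same strand, so part of its counts is uncertain.

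Among the other called cytosolic and dual genes, *Sars* and *Nars* had the highest levels. *Sars* rose from a mean of 576 ± 15.2 CPM (SD, n = 4) in DMSO to 823 ± 40.6 CPM in DOX at 3 days, a log2 fold change of 0.52 ± 0.062, and by 0.46 ± 0.062 at 6 days. *Nars* rose from 428 ± 1.49 to 588 ± 17.7 CPM at 3 days, or by 0.46 ± 0.051, and by 0.46 ± 0.051 at 6 days. *Gars* was called at 3 days with 0.47 ± 0.051 (edgeR adjusted p = 0.00103) and had 0.33 ± 0.051 at 6 days (adjusted p = 0.124). *Tars*, for threonine, had the same order, 0.41 ± 0.050 at 3 days (edgeR adjusted p = 0.00867) and 0.31 ± 0.050 at 6 days (adjusted p = 0.207).

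The 2 subunits of the cytosolic phenylalanyl enzyme gave different estimates. *Farsb*, the beta subunit, was called at both times with 0.54 ± 0.053 and 0.51 ± 0.052 (edgeR adjusted p = 1.05e-04 and 1.26e-04). *Farsa*, the alpha subunit, was called at neither, with 0.19 ± 0.052 and 0.11 ± 0.051. The difference between the subunits was not tested, and *Farsb* shares exon bases with *Sgpp2* on the opposite strand. The genes for alanine (*Aars*), cysteine (*Cars*) and histidine (*Hars*) were not called, with log2 fold changes between 0.068 and 0.18 over both times. Each of these 3 shares exon bases with another gene on the opposite strand, and *Aars* also with *Exosc6* on its own strand.

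**Figure D3:**
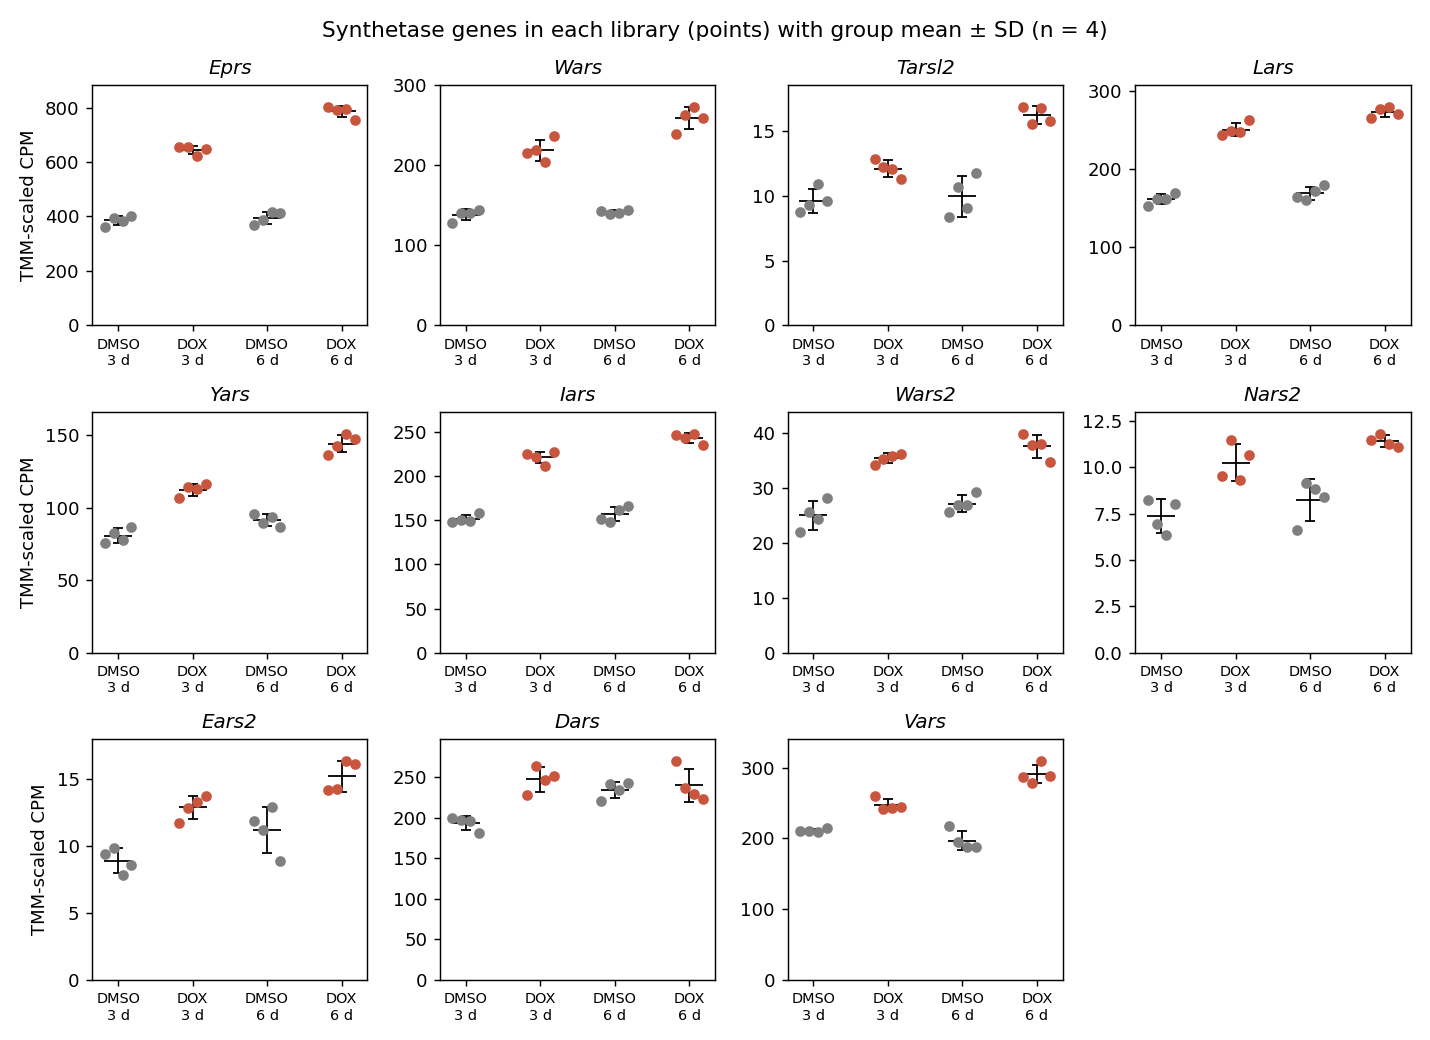
TMM-scaled CPM of 11 synthetase genes in each of the 16 libraries (points), with the mean and SD of each group of 4; every vertical axis starts at 0. For *Eprs*, *Wars*, *Lars*, *Yars*, *Iars* and *Wars2* the DOX points stand above the DMSO points at both times, whereas for *Dars* the treatments overlap at 6 days.

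Among the mitochondrial genes, *Wars2* (ENSMUSG00000004233, chromosome 3 from 99141068 to 99239186), the organelle's tryptophanyl enzyme, was called at both times. It measured 21.9, 25.6, 24.4 and 28.1 CPM in DMSO and 34.2, 35.3, 35.9 and 36.2 CPM in DOX at 3 days. At 6 days it measured 25.6, 27.0, 26.9 and 29.2 CPM in DMSO and 39.9, 37.8, 38.0 and 34.8 CPM in DOX. DOX libraries were higher without overlap, and the log2 fold changes were 0.50 ± 0.069 and 0.47 ± 0.069 (edgeR adjusted p = 0.00415 and 0.00487). With an offset for the average transcript length in each library, they were 0.38 and 0.42 and were no longer called (adjusted p = 0.228 and 0.101).

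*Ears2* (ENSMUSG00000030871, chromosome 7 from 122037213 to 122067263), the mitochondrial glutamyl enzyme, measured 9.41, 9.88, 7.83 and 8.58 CPM in DMSO and 11.7, 12.8, 13.3 and 13.7 CPM in DOX at 3 days. At 6 days it had 11.9, 11.2, 12.9 and 8.89 and 14.2, 14.3, 16.4 and 16.1 CPM. The DOX libraries were the higher at both times. The log2 fold change was 0.53 ± 0.10 at 3 days and 0.44 ± 0.10 at 6 days, on either side of the limit (edgeR adjusted p = 0.0218 and 0.0584). The 3-day call was lost without DMSO replicate 3 (adjusted p = 0.0754) or 4 (0.055) or DOX replicate 3 (0.0515) or 4 (0.0598), and in DESeq2 (0.174). The 6-day estimate was called without DMSO replicate 1 (0.0447) or 3 (0.0202) or DOX replicate 1 (0.0426) or 2 (0.0492) of that time.

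*Nars2* (ENSMUSG00000018995, chromosome 7 from 96951505 to 97064758), the mitochondrial asparaginyl enzyme, measured 8.25, 6.92, 6.34 and 8.02 CPM in DMSO and 9.54, 11.5, 9.31 and 10.7 CPM in DOX at 3 days. The 6-day values were 6.59, 9.14, 8.81 and 8.42 and 11.5, 11.8, 11.2 and 11.1 CPM. The treatments were separate at both times. Its log2 fold change was 0.48 ± 0.11 at 3 days and 0.47 ± 0.10 at 6 days (edgeR adjusted p = 0.0601 and 0.0425), and the 6-day value was not called in DESeq2 (adjusted p = 0.392), in limma on log2(TPM + 1) with or without centring (1.0), with an offset for transcript length in each library (0.489) or when 1 CPM was required in all 16 libraries (0.0559). The 6-day call was lost when any of the 4 DOX libraries of 6 days, DMSO replicate 1 or 4 of 6 days or DMSO replicate 2 of 3 days was left out (adjusted p from 0.0503 to 0.151). The 3-day estimate was called without DMSO replicate 1 (0.0359) or 4 (0.0485) or DOX replicate 1 (0.0358) or 3 (0.0467) of 3 days, or DMSO replicate 1 of 6 days (0.0349). *Ears2* shares exon bases with *Ubfd1* and *Nars2* with *C230038L03Rik*, both on the opposite strand.

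The 14 other mitochondrial genes were not called at either time. The largest estimates among them were those of *Rars2*, for arginine, with 0.41 ± 0.096 at 3 days, and *Tars2*, for threonine, with 0.32 ± 0.056 at 6 days (edgeR adjusted p = 0.123 and 0.214). *Vars2* had -0.12 ± 0.074 at 3 days and *Sars2* -0.12 ± 0.078 at 6 days, the lowest estimates of each time. *Lars2*, the most abundant mitochondrial gene, had 0.15 ± 0.092 and 0.074 ± 0.092, with overlapping libraries at both times.

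Time alone, measured in DMSO between 6 and 3 days, gave 0 called synthetase genes by edgeR's glmTreat, and 0 with an unadjusted p under 0.05. Over all tested genes glmTreat called 0.0%. DESeq2 and limma on TPM also called 0 of the 38 genes. Without the 20% threshold edgeR called 0 of them as well, but 16 had an unadjusted p under 0.05, and over all genes 0.468% were called and 17.8% had such a p. The median log2 difference of the 38 genes between these times was 0.11, and 36 estimates were above 0. The largest was that of *Ears2*, 0.33 ± 0.11.

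Whether the effect of DOX differed between the times was tested directly, without a threshold, by edgeR's glmQLFTest of the change at 6 days minus the change at 3 days. Of the 38 genes 2 were called higher and 1 lower, against 7.44% and 9.58% of all tested genes. *Vars* (ENSMUSG00000007029, chromosome 17 from 35000987 to 35016322), for valine, measured 210.4, 211, 208 and 215 CPM in DMSO and 260.0, 242, 243 and 244 CPM in DOX at 3 days. At 6 days it measured 217, 195, 188 and 187 and 286, 279, 309 and 289 CPM. DOX libraries were above DMSO at both times and by a wider gap at 6 days, with log2 fold changes of 0.23 ± 0.054 and 0.56 ± 0.054. The difference was 0.34 ± 0.077 (edgeR adjusted p = 0.00639). *Eprs* had a difference of 0.25 ± 0.081 (edgeR adjusted p = 0.0381).

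*Dars* (ENSMUSG00000026356, chromosome 1 from 128363707 to 128417368) went the other way. It measured 199.7, 198, 196 and 180.5 CPM in DMSO and 228, 264, 246 and 251 CPM in DOX at 3 days. At 6 days it measured 220.3, 241, 234 and 242 and 269.6, 237, 229.5 and 223 CPM. DOX was above DMSO at 3 days, and the treatments overlapped at 6 days. The log2 fold changes were 0.35 ± 0.063 and 0.033 ± 0.063, neither called, and the difference was -0.32 ± 0.089 (edgeR adjusted p = 0.0176). *Dars* and *Vars* are described here because of this test, a choice made after their values were seen. Of the 6 genes called at 1 time only, *Vars* was the only one called by the test of the difference.

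Cytosolic and mitochondrial enzymes for the same amino acid were set against each other within each library. For 18 pairs, the log2 ratio of their counts was compared between DOX and DMSO by a two-sided exact permutation test over the 70 arrangements of 4 against 4, whose smallest p is 0.0286. The ratio was higher in DOX for 13 pairs at 3 days and 11 at 6 days. With unadjusted p = 0.0286 by this exact test, it was higher in 8 pairs and lower in 2 at each time. Adjusted over the 36 tests, none passed, and the smallest adjusted p was 0.0514. An adjusted p under 0.05 could be met only if many of the 36 tests reached the smallest p of this exact test. The lack of a pass therefore does not show that ratios were unchanged. *Eprs* and *Fars2* each enter more than a single pair, so the pairs are not independent. *Lars* over *Lars2* went from a mean log2 ratio of -0.67 in DMSO to -0.18 in DOX at 3 days, and from -0.61 to 0.015 at 6 days. This was also the only pair of the 18 in which the mitochondrial form had the higher TPM in DMSO. *Eprs* over *Pars2*, the mitochondrial prolyl enzyme, shifted by 0.82 ± 0.087 (SE) and 0.96 ± 0.15. *Rars* over *Rars2* shifted by -0.30 ± 0.080 and -0.30 ± 0.097, and *Cars* over *Cars2* by -0.16 ± 0.045 and -0.22 ± 0.061. These ratios were added after the data were seen.

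**Figure D4:**
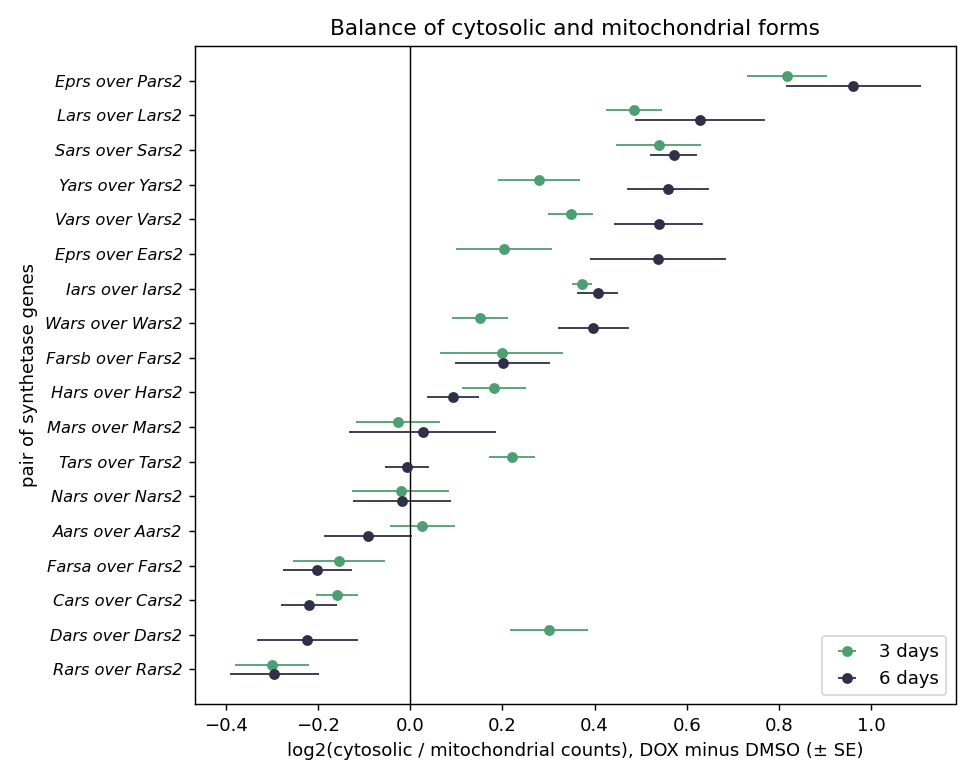
Change of the log2 ratio of cytosolic to mitochondrial counts, DOX minus DMSO, with its SE, for 18 pairs of synthetase genes at 3 days and 6 days. *Eprs* over *Pars2* lies farthest right at 0.82 and 0.96, and *Rars* over *Rars2* lies at -0.30 at both times.

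Promoters were read because Atf4 is known to bind the element TGATGNAA. RefSeq promoters of GRCm38.p6, from 250 bases before to 50 after each start, were at hand for 27 of the 38 genes and for 27025 genes in all. The element, searched on both strands as the only motif, was in 5 of these 27, namely *Aars*, *Gars*, *Iars*, *Tars* and *Yars*, and in 4.51% of all genes. All 5 were among the 13 cytosolic and dual genes with an entry, and none of the 14 mitochondrial genes had a match. The windows shown run from 120 bases before the start to 20 after it, and capitals mark the match or its reverse complement. *Eprs* is shown as the gene with the largest change.
Aars, chr8:111033722-111033861, plus strand: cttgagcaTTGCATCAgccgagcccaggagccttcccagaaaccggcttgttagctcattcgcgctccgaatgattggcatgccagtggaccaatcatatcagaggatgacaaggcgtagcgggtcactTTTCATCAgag
Gars, chr6:55037881-55038020, plus strand: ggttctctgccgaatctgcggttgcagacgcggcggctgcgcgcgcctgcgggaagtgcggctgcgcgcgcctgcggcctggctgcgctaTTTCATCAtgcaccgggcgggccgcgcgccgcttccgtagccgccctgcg
Iars, chr13:49682010-49682149, plus strand: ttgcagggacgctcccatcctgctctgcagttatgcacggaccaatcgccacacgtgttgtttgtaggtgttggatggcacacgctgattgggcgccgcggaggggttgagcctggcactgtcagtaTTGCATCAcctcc
Tars, chr15:11399639-11399778, minus strand: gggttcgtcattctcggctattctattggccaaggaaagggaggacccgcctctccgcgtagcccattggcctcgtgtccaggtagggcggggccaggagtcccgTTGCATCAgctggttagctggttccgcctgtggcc
Yars, chr4:129189783-129189922, plus strand: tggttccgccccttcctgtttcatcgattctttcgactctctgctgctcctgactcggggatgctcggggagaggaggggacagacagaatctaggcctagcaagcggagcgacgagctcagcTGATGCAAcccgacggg
Eprs, chr1:185362924-185363063, plus strand: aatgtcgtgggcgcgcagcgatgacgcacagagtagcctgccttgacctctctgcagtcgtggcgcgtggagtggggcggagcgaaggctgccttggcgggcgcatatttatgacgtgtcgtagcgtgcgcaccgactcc

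Counted with the first base after the start as 1, matches began at base -112 and base 10 in *Aars*, at -30 in *Gars*, at 8 in *Iars*, at -15 in *Tars* and at 4 in *Yars*. *Eprs*, the gene with the largest change, had no match in its window. *Gars*, *Iars*, *Tars* and *Yars* were called at 3 days and *Iars* and *Yars* at 6 days. *Aars*, with 2 matches, was called at neither. Binding of Atf4 and a link between the element and the response to DOX were not tested. Among the 8 cytosolic and dual genes with an entry and no match, 3 were called at 3 days and 4 at 6 days. Over all tested genes, 5.3% and 10.0% were called higher at these times. *Lars*, *Nars*, *Vars* and *Wars* were among the 11 genes without an entry.

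Proteins that work beside the synthetases were read from lists, chosen with earlier results of these data known. Beside each count from these lists stand the shares of all tested genes called higher, 5.3% at 3 days and 10.0% at 6 days. Of the 3 scaffold genes of the multisynthetase complex, *Eef1e1* was called higher at 3 days with 0.64 ± 0.10, and *Aimp1* and *Aimp2* were not called at either time. The change of *Aimp2* was 0.22 ± 0.071 at 3 days and -0.21 ± 0.071 at 6 days, and its difference of -0.43 ± 0.10 was called (edgeR adjusted p = 0.00718). Of 8 genes for proofreading and transamidation, 3 were called at 3 days and 2 at 6 days, all higher. *Aarsd1*, which clears mischarged alanyl-tRNA, had 0.57 ± 0.066 and 0.60 ± 0.065, and *Dtd1*, which removes D-amino acids from tRNA, 0.74 ± 0.099 and 0.63 ± 0.099. *Gatc*, a subunit of the mitochondrial glutaminyl-tRNA amidotransferase, was called at 3 days with 0.49 ± 0.069.

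*Xpot*, the nuclear export receptor of tRNA, was called at both times with 0.58 ± 0.062 and 0.70 ± 0.062 and, of the 7 genes for tRNA export and delivery, was the only one called at 6 days. The elongation factor genes *Eef1g* and *Tsfm* were called at 3 days with 0.48 ± 0.093 and 0.51 ± 0.071, whereas *Tufm*, which carries charged tRNA to the mitochondrial ribosome, had -0.011 ± 0.058 and 0.017 ± 0.058. A list for mitochondrial tRNA processing and modification held 18 tested genes, and not all of their products are confined to mitochondria. Of the 18, 2 were called higher at 3 days and 5 at 6 days, against 5.3% and 10.0% of all tested genes. These were *Qtrt1* and *Yrdc* at both times and *Elac2*, *Pus1* and *Qtrt2* at 6 days, with log2 fold changes from 0.43 to 0.56 at 6 days. Among those not called at either time were *Mto1*, *Gtpbp3*, *Trmu*, *Trmt10c*, *Trmt5*, *Trmt61b* and *Nsun3*. Of the 3 genes that make selenocysteinyl-tRNA none was called.

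Of 10 tested genes for the sensing of uncharged tRNA and its known targets, 6 were called higher at each time. Over all tested genes, 5.3% were called higher at 3 days and 10.0% at 6 days. *Trib3*, a pseudokinase gene activated by Atf4 and Ddit3, had the largest change, 1.09 ± 0.084 and 1.27 ± 0.083. *Asns*, for asparagine synthetase, had 0.75 ± 0.047 and 0.58 ± 0.047, and *Atf4* itself 0.60 ± 0.064 at 3 days and 0.35 ± 0.063 at 6 days, the latter not called (edgeR adjusted p = 0.106). *Ddit3* had 0.90 ± 0.078 and 0.60 ± 0.077 but shares exon bases with *Mars*. *Eif2ak4*, which codes for the kinase that senses uncharged tRNA, was not called at either time, with 0.072 ± 0.066 and 0.35 ± 0.066, but the difference between the times, 0.27 ± 0.093, was called (edgeR adjusted p = 0.0473). So were those of *Gcn1l1*, *Impact* and *Sesn2*, 4 of the 10 genes in all, each with the higher log2 fold change at 6 days. Over all tested genes, 7.44% had a difference called higher.

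The scale of measurement mattered for these counts. On log2(TPM + 1), limma called 1 of the 38 genes, *Eprs*, at 3 days and 4, *Eprs*, *Iars*, *Lars* and *Wars*, at 6 days, where it called 0.645% and 2.83% of all genes higher. On that scale the median of all genes was itself shifted, by -0.15 at 3 days and -0.055 at 6 days. With library medians set equal, a step added after the data were seen, limma called 8 of the synthetase genes at the earlier and 10 at the later time. Among all 13180 genes of that run, 302 and 620 were called higher.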

How the data were processed

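RNA of 16 libraries, 4 in each of 4 groups read from the sample labels, was measured by paired-end sequencing after poly(A) selection with a directional kit. Per the labels, reads were aligned to GRCm38.p6 with STAR 2.6.0c and quantified with salmon. The authors deposited estimated counts per gene, not normalized, and TPM per gene, and nothing before these tables was redone. Estimated counts are shared out among transcripts by a model, so genes with overlapping exons may exchange counts. Total estimated counts ran from 16933343 to 23960860, and 3 counts came to between 0.125 and 0.177 CPM, a floor that covers counting error only.

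After rounding of the estimated counts, the 13234 genes that reached 1 CPM in 4 or more libraries entered the fit, with TMM scaling. A robust quasi-likelihood model with a mean for each group was fitted to all 16 libraries with edgeR 4.0.16 in R 4.3.3. DOX against DMSO and time in DMSO were tested by glmTreat with a fold threshold of 1.2, and the difference of the DOX effects by glmQLFTest. Two-sided p-values were adjusted after Benjamini and Hochberg across the 13234 genes and set against 0.05. The SE is the log2 fold change divided by the square root of F. TPM was used for levels between genes and, as log2(TPM + 1), with limma 3.58.1. DESeq2 1.42.0, RLE scaling, other filters, no threshold, non-robust fitting, fits of 8 libraries, offsets for transcript length and GC content (splines with 5 degrees of freedom) or for length per library, the replicate number as a block and leaving out each library were the alternatives. Ratios of paired genes used SciPy 1.17.1. The fit was tested on simulated counts with known changes before use.

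The replicate numbers recur in each group, but deviations of equally numbered libraries correlated at -0.433 to 0.178, so libraries were not treated as pairs. Positions come from GENCODE M21 (GRCm38) and promoters from RefSeq (GRCm38.p6). Genes given by library were the 6 largest changes at 6 days among called cytosolic and dual genes, the called mitochondrial genes with the largest changes at 6 days, filled up to 3 from the others, and the 3 largest at 3 days. The members and the gene lists were chosen with earlier results of these data known.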

Additional observations from a re-analysis of the deposited data

Results flagged for a closer look

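The effect of DOX differed between 6 and 3 days in 3 synthetase genes by edgeR's glmQLFTest, or 2 higher and 1 lower, where 7.44% of all tested genes were higher and 9.58% lower, so the share was no larger than that of all genes. The log2 fold change at 6 days minus that at 3 days was 0.34 for *Vars* (adjusted p = 0.00639), 0.25 for *Eprs* (adjusted p = 0.0381) and -0.32 for *Dars* (adjusted p = 0.0176). The 6-day DOX libraries of *Dars* included replicate 1 at 269.6 CPM, above the other 3 at 223 to 237 CPM. The *Eprs* difference was no longer called without DMSO replicate 2, 3 or 4 of 3 days, DOX replicate 2, 3 or 4 of 3 days, DMSO replicate 1 or 2 of 6 days, or DOX replicate 2 or 3 of 6 days, with adjusted p from 0.0505 to 0.0846. The *Vars* and *Dars* differences were called whichever library was left out. With a threshold of 1.2 on the difference, or in limma on log2(TPM + 1), none of the 3 was called. *Vars* was also not called in limma with centring (adjusted p = 0.141) or with an offset for transcript length in each library (0.0989), and *Dars* not without a filter beyond 1 count (0.0529). In 52 groups of 4 libraries, of the 13 genes whose library values or group means are given, 1 library lay apart from the other 3 by Dixon's criterion, and chance gives about 1 in 20. It was DOX replicate 1 of 3 days for *Vars*, at 260.0 CPM against 242 to 244 CPM, the library that stood apart for all genes.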

How the results depend on the processing

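Of the 38 genes, the main fit called 12 at each time, and limma on log2(TPM + 1) called 1 at 3 days and 4 at 6 days. Without the fold threshold edgeR called 28 and 26 of the 38. Many more of all tested genes were then called higher too, so these counts cannot be set directly against 12. Other alternatives gave 8 to 13 at 3 days and 10 to 13 at 6 days. The number whose DOX effect differed between times, 3, was 5 with DESeq2, 5 with the length and GC offset, 5 with that offset and the replicate block, 1 without a filter beyond 1 count, 0 with limma on log2(TPM + 1) and 0 with a threshold of 1.2 on the difference. Leaving out each library in turn gave 11 to 15 genes at 3 days, 11 to 13 at 6 days, 0 for time in DMSO and 2 to 5 for the difference. The difference counted 5 without replicate 1 of DMSO at 3 days, of DOX at 3 days or of DOX at 6 days, and 2 without any of 8 other libraries.

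The replicate numbers did not pair the libraries. With the replicate block 12, 12 and 0 genes were called at 3 days, at 6 days and for time in DMSO, and 2 for the difference, as *Eprs* was lost (0.25, adjusted p = 0.0646). None of the log2 fold changes of genes given by library at 3 or 6 days changed sign under these alternatives, except that of *Dars* at 6 days. Over all 38 genes, signs differed for 7 at 3 days and 3 at 6 days with limma on log2(TPM + 1), where the mitochondrial median at 3 days was 0.014, and for 2 and 3 with the length and GC offset, *Rars* at both times. Among genes given by library, limma without centring no longer called *Wars*, *Lars*, *Iars* and *Ears2* at 3 days, *Tarsl2*, *Nars2* and *Vars* at 6 days, or *Yars* and *Wars2* at either time, and the cause was not tested. The median TPM in DMSO stayed between 74.8 and 77.7 for cytosolic genes and between 13.3 and 14.0 for mitochondrial genes when libraries were left out. Depth limits the scarce genes most, since *Nars2*, *Tarsl2*, *Ears2* and *Mars2* had at most 378 counts in any library.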

Other observations

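By structural class, 6 of the 18 class I synthetase genes and 5 of the 19 class II genes were called higher at each time, and *Eprs*, which holds an active site of each class, was called at both. The shares of all tested genes called higher were 5.3% at 3 days and 10.0% at 6 days. Median log2 fold changes were 0.28 and 0.28 in class I and 0.29 and 0.28 in class II. Within the cytosolic and dual genes, 4 of 9 in class I and 5 of 11 in class II were called at 3 days, and 5 and 4 at 6 days. The 6 synthetase genes on chromosome 1 include *Iars2* and *Eprs*, which lie side by side on opposite strands between 185284726 and 185428360, and of these *Iars2* was called at neither time.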
